A study of Mus musculus with 9 samples.

Results

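The Hox cluster genes are the mouse genes whose symbols run Hoxa, Hoxb, Hoxc or Hoxd followed by a paralog number. They were chosen by symbol alone, from probe sets that the array's annotation pairs with 1 gene symbol, and each gene was represented by its brightest probe set by mean log2 signal. Of the 39 Hox genes in the RefSeq gene table, 33 were measured this way, among 18193 genes in all. They were 9 of 11 Hoxa genes on chromosome 6, 9 of 10 Hoxb genes on chromosome 11, 7 of 9 Hoxc genes on chromosome 15 and 8 of 9 Hoxd genes on chromosome 2. The others were not analysed here. A set of 48 probe sets covered the 33 genes, with several probe sets for 11 genes and 1 for 22.

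Hox genes encode homeodomain transcription factors that set position along the head-to-tail axis. In each cluster the genes lie in the order of their paralog numbers, and low-numbered genes are expressed furthest towards the head, up to the hindbrain, while high-numbered genes mark the spinal cord and tail. The forebrain, diencephalon and optic nerve normally lie in front of the Hox domain, where Otx and Emx factors act instead. Polycomb complexes keep Hox clusters silent, Trithorax complexes and retinoic acid signalling favour their transcription, and the TALE homeodomain proteins of the Pbx and Meis families bind DNA together with Hox proteins.

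The study hybridised RNA from 9 cultures to Affymetrix mouse arrays, 3 in each of 3 groups, all from C57BL/6 mice. The glioma stem cells were grown from the optic gliomas (optic nerve) of Nf1+/-GFAP CKO mice at 3 months of age; the label does not spell out GFAP CKO. The Nf1-null neural stem cells came from the zone around the third ventricle (TVZ) of Nf1flox/flox pups at postnatal day 1 and were given a virus carrying the Cre recombinase, an enzyme that cuts out floxed sequence. The wild-type neural stem cells came from pups of the same Nf1flox/flox genotype, zone and age and were given a LacZ virus as control, so the wild-type cells also carried floxed alleles and virus. All 3 groups were kept in low-attachment dishes with N2, B27, FGF at 20 ng/ml and EGF at 20 ng/ml. The glioma cells therefore differed from both neural stem cell groups in tumour origin, tissue, age, genotype and virus at once, and these cannot be told apart. The labels speak of independent cultures for the neural stem cells but do not say whether the glioma arrays came from separate tumours, so the p-values measure only the spread between these arrays.

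The values are array signals on a linear scale, with median probe set signals of 264.7 to 287.4 over the 9 arrays. The files hold no detection call, so a gene counted as above background on an array when its signal exceeded the 95th percentile of 70 olfactory and vomeronasal receptor genes on that array, a limit of 150.9 to 231.4. Between 61.8% and 66.0% of all genes lay above that limit. Nf1, the gene removed, had signals of 622.6, 600.1 and 548.9 in glioma stem cells, 430.3, 645.8 and 577.0 in Nf1-null neural stem cells and 1139.5, 919.5 and 999.9 in wild-type neural stem cells. Every wild-type array thus lay above every other array for Nf1, with a log2 difference of -0.78 ± 0.19 (SE) for glioma minus wild type (limma adjusted p = 0.0441) and -0.90 ± 0.19 for Nf1-null minus wild type (adjusted p = 0.123); the exact permutation p was 0.1 for each, the smallest that 3 arrays against 3 can give, and whether the probe set lies in the deleted sequence was not tested. The glioma difference missed the threshold without wild-type array 1, 2 or 3, Nf1-null array 3, or glioma array 1, 2 or 3 (-0.85 to -0.70, adjusted p between 0.063 and 0.139). With the mean of all Nf1 probe sets in place of the brightest it was -0.66 ± 0.44 (adjusted p = 0.417). It also missed with quantile normalization (adjusted p = 0.0598), arrays shifted to 1 median (adjusted p = 0.0563) and the 6 arrays compared (adjusted p = 0.0502). All 8 neural stem cell markers were above the limit on every array of every group, while Aif1, Cx3cr1, Ptprc and Tyrobp of 6 microglial markers, Pecam1, Cdh5, Tek and Cldn5 of 5 endothelial markers and Col1a1, Col3a1, Dcn, Lum and Pdgfrb of 6 fibroblast and meningeal markers lay below it on all 9 arrays. Among the other markers of these lists, Csf1r of microglia was above the limit on all 9 arrays (238.1 to 371.7), P2ry12 on 3 and Kdr of endothelium on 8. Over the 9097 brighter genes, glioma arrays 2 and 3 correlated at 0.989, and glioma array 1 correlated with them at 0.95 and 0.944. Arrays of the same group correlated at 0.938 to 0.954 for Nf1-null cells and at 0.951 to 0.964 for wild-type cells. Of these within-group values 0.989 was the highest, and those of glioma array 1 lay within the Nf1-null range. Glioma array 1 also correlated with Nf1-null array 1 at 0.944, the same value as with glioma array 3. With the other neural stem cell arrays it correlated at 0.854 to 0.921. Glioma arrays 2 and 3 correlated with neural stem cell arrays at 0.804 to 0.887 only, so glioma array 1 lay closer to those groups.

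Most Hox genes were at background in all 3 groups as measured by their brightest probe sets. Of the 33 genes, 24 had that probe set below the limit on all 9 arrays, with signals between 1.0 and 134.9 in glioma stem cells, 2.5 and 164.2 in Nf1-null cells and 4.6 and 161.5 in wild-type cells. The number of Hox genes above the limit was 5, 4 and 4 on the glioma arrays, against 4, 2 and 2 on the Nf1-null arrays and 2, 3 and 2 on the wild-type arrays. The median Hox signal was 39.5, 50.9 and 69.5 in glioma stem cells, 37.0, 48.2 and 42.4 in Nf1-null cells and 63.7, 42.2 and 57.8 in wild-type cells. These medians overlapped between the groups. Among the 24 genes, Hoxa4 had another probe set, described below with the gene, that was above the limit on the 3 glioma arrays.

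By their brightest probe sets, 3 Hox genes were above the limit on all 3 arrays of some group, and all 3 belong to the Hoxa cluster. They were Hoxa3 and Hoxa5 in glioma stem cells, Hoxa5 in Nf1-null cells, and Hoxa5 and Hoxa9 in wild-type cells. With the 99th percentile of the receptor genes as the limit the count was 2, with the 90th it was 5, and with the 25th percentile of all genes it was 10. The genes above the limit on some but not all arrays of a group included Hoxa2 and Hoxa7 of the Hoxa cluster, and Hoxb4, Hoxc6, Hoxc9 and Hoxd8 of the others.

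**Figure D1:**
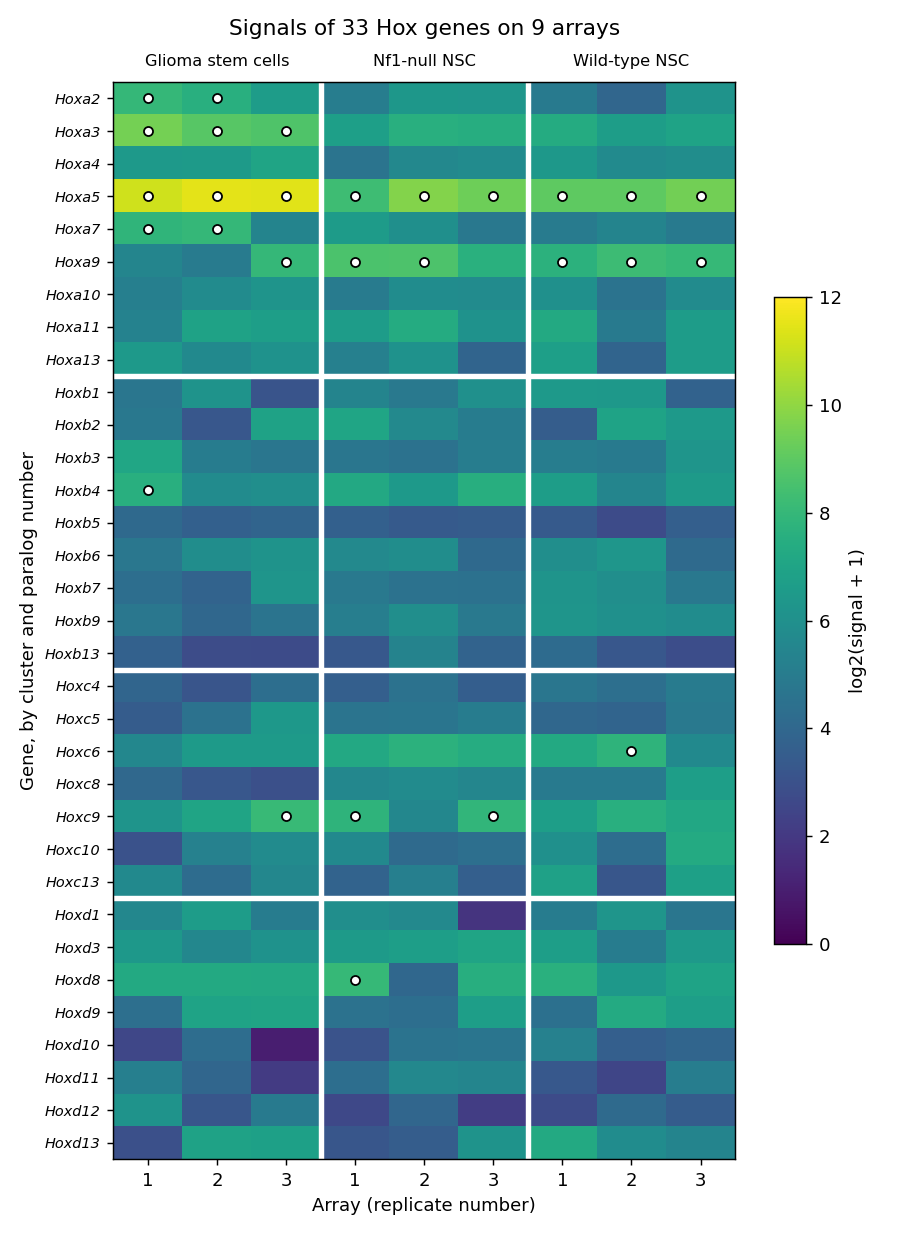
Log2(signal + 1) of the 33 Hox genes (rows, by cluster and paralog number) on the 9 arrays (columns, glioma stem cells at the left, then Nf1-null and wild-type neural stem cells); white dots mark signals above that array's background limit. The dots lie mostly in Hoxa2 to Hoxa9, and 24 genes have none.

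Because the Hoxa genes carry the values above background, the 250 bases upstream of the transcription start of Hoxa2, Hoxa3, Hoxa5 and Hoxa9 are shown, from RefSeq on GRCm38.p6, all on the minus strand of chromosome 6. They are chr6:52164832-52165081 for Hoxa2, chr6:52213068-52213317 for Hoxa3, chr6:52204588-52204837 for Hoxa5 and chr6:52227371-52227620 for Hoxa9. The start that RefSeq gives for Hoxa3 lies upstream of that of Hoxa5. Capitals mark matches to CCAAT (the CCAAT box), GGGCGG (the GC box) and TGATNNAT (a Pbx-Hox composite site), each searched on both strands; TATAAA (the TATA box) and AGGTCA (a nuclear receptor half-site) were also searched and had no match in these windows.
Hoxa2: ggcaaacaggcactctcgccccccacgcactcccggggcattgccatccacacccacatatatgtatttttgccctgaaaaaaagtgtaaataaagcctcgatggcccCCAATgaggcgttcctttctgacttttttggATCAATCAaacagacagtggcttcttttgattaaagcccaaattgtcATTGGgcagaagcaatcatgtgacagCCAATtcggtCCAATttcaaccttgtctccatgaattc
Hoxa3: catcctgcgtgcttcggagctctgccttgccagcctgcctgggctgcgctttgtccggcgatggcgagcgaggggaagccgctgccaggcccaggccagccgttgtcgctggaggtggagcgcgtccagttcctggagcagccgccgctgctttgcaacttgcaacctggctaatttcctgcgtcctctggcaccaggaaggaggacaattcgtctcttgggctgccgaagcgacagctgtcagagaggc
Hoxa5: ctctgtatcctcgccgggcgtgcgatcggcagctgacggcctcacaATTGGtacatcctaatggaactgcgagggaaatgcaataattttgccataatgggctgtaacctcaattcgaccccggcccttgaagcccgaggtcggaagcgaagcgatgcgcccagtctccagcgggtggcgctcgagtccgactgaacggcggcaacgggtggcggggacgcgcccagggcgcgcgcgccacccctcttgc
Hoxa9: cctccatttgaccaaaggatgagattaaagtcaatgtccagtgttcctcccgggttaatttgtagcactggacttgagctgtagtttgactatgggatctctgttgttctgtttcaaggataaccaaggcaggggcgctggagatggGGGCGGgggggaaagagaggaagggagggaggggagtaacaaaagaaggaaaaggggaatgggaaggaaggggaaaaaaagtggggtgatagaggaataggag
The Hoxa2 window held 4 CCAAT boxes, the nearest beginning 28 bases before the start, and 1 Pbx-Hox composite, while Hoxa5 held 1 CCAAT box and Hoxa9 held 1 GC box. Of all 32851 promoter windows of this length, 33.8% held CCAAT, 32.7% GGGCGG, 14% AGGTCA, 12.4% TATAAA and 7.68% TGATNNAT. Among the 24 windows of 22 Hox genes in the table, 14 held CCAAT, 10 GGGCGG, 6 AGGTCA, 4 TATAAA and 4 TGATNNAT. The GC content was 64.8% for Hoxa3 with 18 CpG and 63.6% for Hoxa5 with 28 CpG, against 46.4% for Hoxa2 with 6 CpG and 49.6% for Hoxa9 with 3 CpG. The median was 58.6% with 12 CpG over Hox windows and 52.4% with 6 CpG over all windows, so Hoxa3 and Hoxa5 were richer in CpG than the other pair of genes printed. These matches describe letters and not binding.

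Glioma stem cells were set against both neural stem cell groups to find which genes differ in the tumour-derived cells, and the same cultures serve as one side of both comparisons. In both, Hoxa3 and Hoxa5 rose in glioma stem cells, and no other Hox gene rose as measured by its brightest probe set. Against Nf1-null cells, 2 of 33 Hox genes rose and 0 fell at an adjusted p under 0.05 over all 18193 genes (limma), where 0.671% of all genes rose and 1.08% fell, 1.75% in all. Against wild-type cells, 2 rose and 2 fell, where 3.46% of all genes rose and 5.6% fell, 9.06% in all. The median Hox difference was 0.19 on the log2 scale against Nf1-null cells and 0.06 against wild-type cells, with medians of -0.04 and -0.09 over all genes. At an unadjusted p under 0.05 there were 6 and 9 Hox genes of 33, against 16.5% and 26.3% of all genes, so the Hox genes as a whole stood close to the background in these counts. In bulk RNA, more cells with a transcript and more transcript per cell cannot be told apart.

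Hoxa5, a central Hoxa gene active in the cervical region of the body axis, was above the limit on all 9 arrays by its brightest probe set. Its signals were 2270.1, 2886.8 and 2797.7 in glioma stem cells, 303.9, 863.0 and 657.5 in Nf1-null cells and 527.9, 512.7 and 703.8 in wild-type cells. Every glioma array was above every neural stem cell array. The log2 difference was 2.24 ± 0.37 (SE), a 4.73-fold change of the mean log2 signal, against Nf1-null cells (limma adjusted p = 0.0369) and 2.19 ± 0.37, a 4.58-fold change, against wild-type cells (adjusted p = 0.0195). The neural stem cell groups overlapped each other. A suffix of x_at or s_at marks a probe set whose probes can match more than 1 transcript, and the brightest Hoxa5 probe set, 1443803_x_at, is one. A second Hoxa5 probe set, 1448926_at, read 3686.8, 3540.2 and 3449.7 in glioma stem cells, 201.5, 111.1 and 515.5 in Nf1-null cells and 224.6, 218.7 and 522.4 in wild-type cells. This second probe set was below the limit on Nf1-null array 2 (111.1, limit 231.4) and above it on the other arrays. It showed the same order with larger differences of 3.97 ± 0.56 (adjusted p = 0.0318 over all 34945 probe sets) and 3.59 ± 0.56 (adjusted p = 0.0197).

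The Hoxa5 calls depended on single arrays. Without single arrays, the difference ranged from 1.81 to 2.56 against Nf1-null cells and from 2.11 to 2.34 against wild-type cells. Against Nf1-null cells, the call was lost without wild-type array 1, 2 or 3 (2.24 each, adjusted p = 0.0688, 0.069 and 0.0621), which enter only through the shared spread. It was also lost without Nf1-null array 3 (2.36, adjusted p = 0.0849), without glioma array 2 (2.18, adjusted p = 0.135), without glioma array 3 (2.20, adjusted p = 0.128) and when only the 6 arrays compared were fitted (2.24, adjusted p = 0.118). Against wild-type cells it was lost without wild-type array 2 (2.11, adjusted p = 0.0737), glioma array 2 (2.13, adjusted p = 0.0739) or glioma array 3 (2.15, adjusted p = 0.0704). Without glioma array 1, Hoxa5 remained called in both, at 2.35 (adjusted p = 0.0387) and 2.30 (adjusted p = 0.0263).

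Hoxa3, an anterior gene that patterns the pharyngeal arches and the hindbrain, had signals of 728.8, 473.1 and 409.9 in glioma stem cells, 109.3, 188.8 and 177.5 in Nf1-null cells and 165.3, 100.3 and 123.1 in wild-type cells. It was above the background limit on the 3 glioma arrays alone. The log2 difference was 1.75 ± 0.32 (SE) against Nf1-null cells (limma adjusted p = 0.0457) and 2.03 ± 0.32 against wild-type cells (adjusted p = 0.0163). Because both neural stem cell groups lay below the limit, these are given as bounds, from the glioma mean against the higher of the limit and the measured value on each array: at least 2.66-fold over Nf1-null cells and at least 2.5-fold over wild-type cells. Probe set 1427433_s_at of Hoxa3 read 1094.3, 661.6 and 659.1 in glioma stem cells, 61.6, 44.0 and 54.6 in Nf1-null cells and 3.8, 73.4 and 65.7 in wild-type cells, and was at least 3.99-fold higher than in Nf1-null cells (adjusted p = 0.123 over all probe sets) and at least 3.75-fold higher than in wild-type cells (adjusted p = 0.0328). The 2 other Hoxa3 probe sets were dimmer, with glioma means of 198.3 and 79.9, and did not pass. The first, 1431392_at, overlapped Nf1-null cells, with differences of 0.56 ± 0.23 (adjusted p = 0.313 over all probe sets) and 0.69 ± 0.23 against wild-type cells (adjusted p = 0.117). The other, 1429398_at, was below the limit on every array and overlapped both neural stem cell groups.

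The Hoxa3 call against Nf1-null cells rested on every array. It was lost without any one of the 9 arrays, at differences between 1.5 and 1.92: without Nf1-null array 1 (1.5, adjusted p = 0.113), 2 (1.90, adjusted p = 0.0898) or 3 (1.85, adjusted p = 0.101), without glioma array 1 (1.51, adjusted p = 0.0552), 2 (1.82, adjusted p = 0.144) or 3 (1.92, adjusted p = 0.102), and without wild-type array 1, 2 or 3 (1.75 each, adjusted p = 0.0688, 0.0735 and 0.0785). With the replicate number as a block, Hoxa3 also missed the threshold (1.75 ± 0.36, adjusted p = 0.102). Against wild-type cells the call was lost without wild-type array 2 (1.86, adjusted p = 0.0641), wild-type array 3 (2.01, adjusted p = 0.0516) or glioma array 2 (2.10, adjusted p = 0.0581), and kept without glioma array 1 (1.79, adjusted p = 0.0224).

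**Figure D2:**
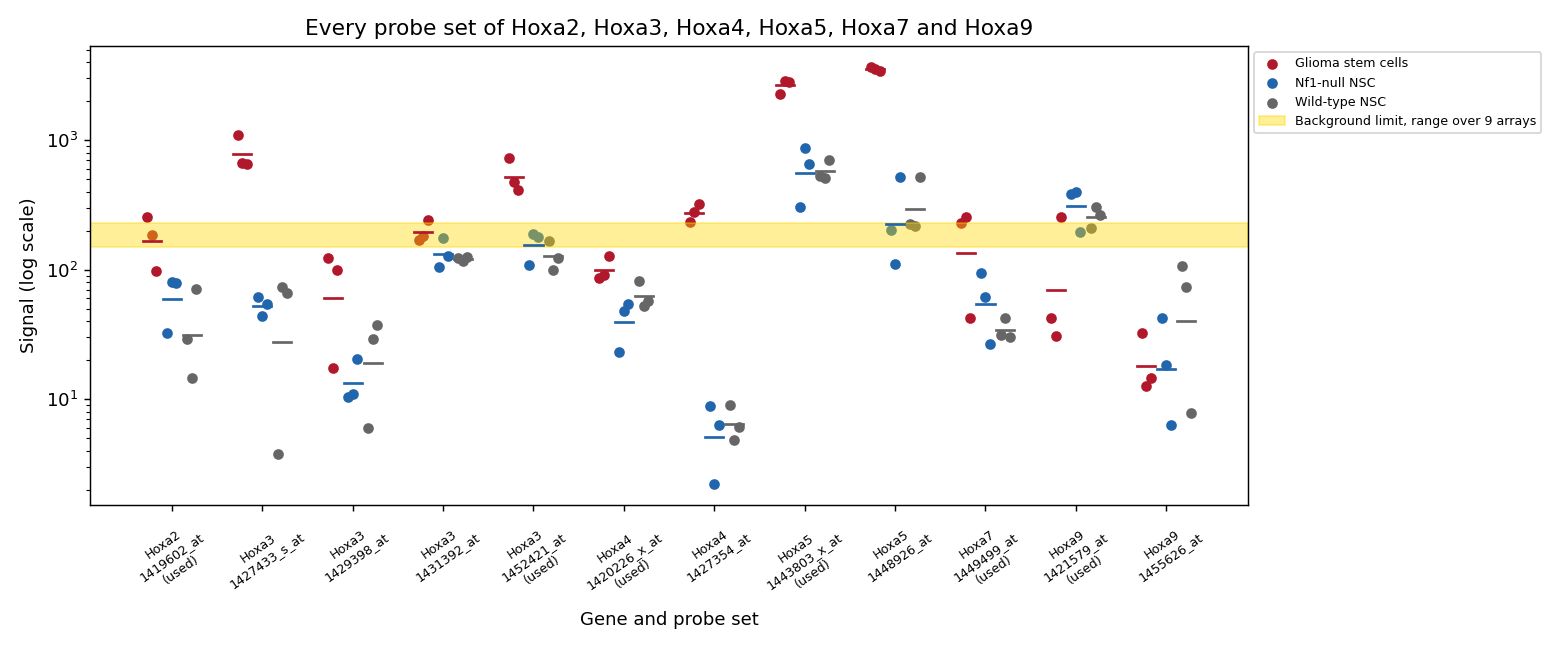
Signal (log scale) of every probe set of Hoxa2, Hoxa3, Hoxa4, Hoxa5, Hoxa7 and Hoxa9 on each array, glioma stem cells at the left of each triplet, then Nf1-null and wild-type neural stem cells. Points are arrays, bars are means of log2 signals, and the yellow band is the range of the background limit. Glioma points lie above all neural stem cell points for both Hoxa5 and both Hoxa4 probe sets, for 2 Hoxa3 probe sets and for Hoxa2, with the widest gap for Hoxa4 1427354_at, and they do not for Hoxa7 and Hoxa9.

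The remaining Hoxa genes up to paralog 7 had higher glioma means but did not pass the test with their brightest probe sets; they were named after their values were seen. Hoxa2, the gene with the most anterior hindbrain expression of the Hox family, read 255.5, 186.9 and 97.5 in glioma stem cells, 32.5, 80.7 and 78.6 in Nf1-null cells and 29.0, 14.5 and 71.0 in wild-type cells. Glioma arrays 1 and 2 were above the limit, all 3 lay above the neural stem cell arrays, and the log2 differences were 1.48 ± 0.64 (adjusted p = 0.307) and 2.38 ± 0.64 (adjusted p = 0.0601). Against wild-type cells Hoxa2 passed in 3 of 18 alternatives, with a pseudocount of 16 (1.90, adjusted p = 0.0435), a variance trend (adjusted p = 0.042) and trend with robust moderation (adjusted p = 0.0456). Hoxa7, a central gene of the thoracic region, read 230.5, 253.6 and 42.1 in glioma stem cells, 95, 61.6 and 26.6 in Nf1-null cells and 31.1, 42.2 and 30.1 in wild-type cells. Its glioma array 3 overlapped both neural stem cell groups, and the differences were 1.31 ± 0.73 (adjusted p = 0.425) and 1.96 ± 0.73 (adjusted p = 0.138).

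For Hoxa4, a central gene of the cervical region, the answer turned on the probe set. Its brightest probe set, 1420226_x_at, lay below the limit everywhere, with 86.7, 91.5 and 127.2 in glioma stem cells, 23.2, 48.2 and 54.7 in Nf1-null cells and 82.1, 52.2 and 57.8 in wild-type cells. The differences there were 1.32 ± 0.35 (adjusted p = 0.123) and 0.67 ± 0.35 (adjusted p = 0.273). Probe set 1427354_at read 233.2, 280.7 and 320.8 in glioma stem cells, 8.8, 2.2 and 6.3 in Nf1-null cells and 9.0, 4.8 and 6.1 in wild-type cells. It was above the limit on the 3 glioma arrays alone and was at least 1.41-fold higher than in Nf1-null cells (adjusted p = 0.00619 over all probe sets) and at least 1.33-fold higher than in wild-type cells (adjusted p = 0.00505).

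Over the 5 measured Hoxa genes of paralogs 2 to 7, all 5 differences were positive in both glioma comparisons. The median of the measured log2 differences was 1.48 against Nf1-null cells and 2.03 against wild-type cells, but 4 of the 5 genes lay below the limit in both neural stem cell groups, so these medians have no exact size. Of the 5, 2 passed the test in each comparison, and in 4 of the 5 the glioma arrays did not overlap the other group, where 9.24% and 13.9% of all genes were higher without overlap. This set was not a planned grouping, and Hoxa2, Hoxa4 and Hoxa7 were named after their values were seen. The signs and counts therefore describe the set and cannot test it. The 4 posterior Hoxa genes had medians of -0.10 and 0.17, with 0 called. The 24 Hoxb, Hoxc and Hoxd genes had medians of -0.02 and -0.20, with 0 called against Nf1-null cells and 2 that fell against wild-type cells.

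Hoxa9, a posterior gene of the Hoxa cluster known for its part in leukaemia, ran the other way. It read 42.5, 30.5 and 254.1 in glioma stem cells, 385.4, 401.5 and 196.8 in Nf1-null cells and 211.6, 303.2 and 262.2 in wild-type cells. It was above the limit on 1 glioma array, 2 Nf1-null arrays and 3 wild-type arrays, and glioma array 3 lay within the range of the other groups. The log2 differences were -2.15 ± 0.74 (limma adjusted p = 0.206) against Nf1-null cells and -1.87 ± 0.74 (adjusted p = 0.158) against wild-type cells. Without glioma array 3 they were -3.08 (adjusted p = 0.0339) and -2.80 (adjusted p = 0.0314), so 1 array decides whether Hoxa9 passes. A second Hoxa9 probe set was below the limit on every array. Hoxa10, Hoxa11 and Hoxa13, which pattern limbs and the urogenital tract, were below the limit on all 9 arrays, with differences between -0.38 and 1.01 that did not pass.

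The pair of Hox genes that were lower in glioma stem cells than in wild-type cells were both below the background limit on all 9 arrays, so their log2 differences come from signals with no settled order and are no measure of size. Hoxb9, a posterior gene of the thoracic region, read 26.3, 15.0 and 23.5 in glioma stem cells, 34.4, 59.1 and 27.9 in Nf1-null cells and 76.7, 64.1 and 55.7 in wild-type cells, a log2 difference from wild type of -1.58 ± 0.32 (adjusted p = 0.0295). Hoxc8, a gene of brachial and thoracic spinal cord, read 15.7, 8.6 and 6.5 in glioma stem cells, 46.7, 54.1 and 44.8 in Nf1-null cells and 30.0, 30.3 and 104.7 in wild-type cells, a difference from wild type of -2.14 ± 0.51 (adjusted p = 0.0428). Against Nf1-null cells the differences were -0.84 (adjusted p = 0.256) for Hoxb9 and -2.22 (adjusted p = 0.0889) for Hoxc8, which passed without wild-type array 3 (adjusted p = 0.0386). Glioma arrays were lowest for both genes, at signals where the receptor genes also lie. The Hoxb9 call was lost without wild-type array 1 (-1.46), 2 (-1.59) or 3 (-1.69) or glioma array 2 (-1.35) or 3 (-1.66), with adjusted p between 0.0652 and 0.099, and with a variance trend (adjusted p = 0.0813), also with robust moderation (adjusted p = 0.108). The Hoxc8 call was lost without wild-type array 1 (-2.44), 2 (-2.43) or 3 (-1.55), without Nf1-null array 1, 2 or 3 (-2.14 each), and without glioma array 2 (-2.06) or 3 (-1.89), with adjusted p between 0.0587 and 0.135. When the 25% dimmest genes were left out, neither gene was in the fit.

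Among the 9 Hoxb genes the highest signals were 191.0 in glioma stem cells, 184.9 in Nf1-null cells and 124.5 in wild-type cells, all from Hoxb4, apart from the wild-type value of Hoxb2. Among the 7 Hoxc genes the highest were 271.0, 240.6 and 221.1, from Hoxc9 in glioma and Nf1-null cells and from Hoxc6 in wild-type cells. Among the 8 Hoxd genes the highest were 157.9, 262.9 and 194.3, all from Hoxd8. Each of these genes overlapped between glioma stem cells and wild-type cells, and none passed in any comparison. Against Nf1-null cells Hoxc6 alone did not overlap, with glioma signals of 46.7 to 93.1 against 148.7 to 206.6, all below the limit. Its difference there was -1.22 ± 0.54 (limma adjusted p = 0.319). Another Hoxc6 probe set, 1427454_at, went the other way without overlap (1.90 ± 0.51, adjusted p = 0.144 over all probe sets) and was below the limit on all 9 arrays. Of the 24 genes of these 3 clusters, 20 lay below the limit on all 9 arrays.

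By cluster, the median difference between glioma stem cells and Nf1-null cells was 1.31 for Hoxa, -0.64 for Hoxb, -0.06 for Hoxc and 0.84 for Hoxd. Against wild-type cells it was 0.67 for Hoxa, -0.36 for Hoxb, -0.70 for Hoxc and 0.05 for Hoxd. By paralog number, anterior genes (1 to 3, 7 genes) had medians of 0.83 and 0.17, central genes (4 to 8, 12 genes) 0.27 and 0.26, and posterior genes (9 to 13, 14 genes) -0.02 and -0.20. The Hoxd median rests on genes below the limit in every group apart from Hoxd8, with no call among 8. Groups did not overlap for 4 Hox genes higher and 4 lower against Nf1-null cells, 24.2% of the family where 21.9% of all genes did not overlap, and for 5 higher and 3 lower against wild-type cells, again 24.2% where 34.8% of all genes did not overlap.

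**Figure D3:**
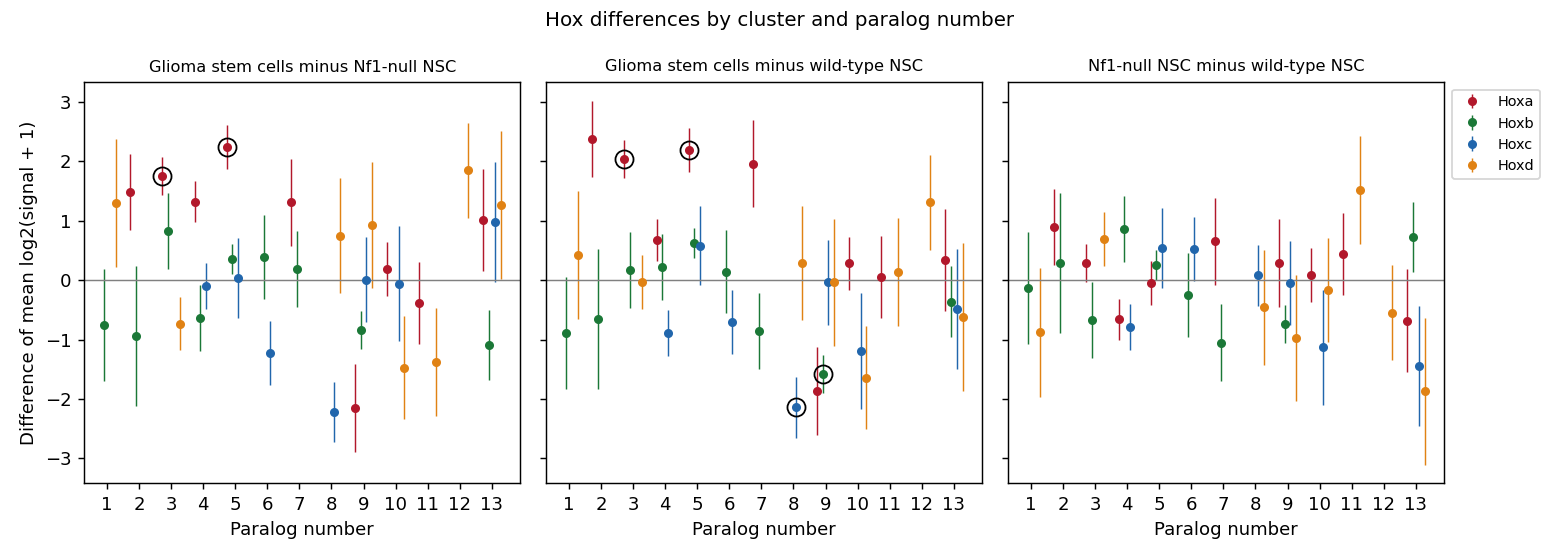
Difference of mean log2(signal + 1) for each Hox gene by paralog number, in 3 panels (glioma minus Nf1-null, glioma minus wild type, Nf1-null minus wild type); colours are clusters, vertical lines are standard errors of 3 arrays a group, and rings mark adjusted p under 0.05. Hoxa points up to paralog 7 lie above 0 in both glioma panels, and no ring appears in the third panel.

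The third comparison asks what loss of Nf1 changes in neural stem cells. Between Nf1-null and wild-type cells, 0 of 33 Hox genes passed the adjusted threshold in limma, but 0.0% of all genes and not even Nf1 passed it, so that count does not show that Hox genes were unchanged. At an unadjusted p under 0.05, 0 of 33 passed, where 16.8% of all genes did. The median difference was -0.05, with -0.06 over all genes, and 15 genes were positive and 18 negative. In 0 of the 33 genes did the groups separate, where 9.75% of all genes were higher and 14.1% lower without overlap, 23.8% in all. The Hoxa5 difference was -0.05 ± 0.37 (adjusted p = 0.966), the Hoxa3 difference 0.28 ± 0.32 (adjusted p = 0.705) and the Hoxa9 difference 0.28 ± 0.74 (adjusted p = 0.883). When only the 9097 brighter genes were fitted, Nf1 did pass (-0.90, limma adjusted p = 0.0285) and 398 genes were called. Hoxa5, the only Hox gene in that fit, did not pass.

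The summed signal of the 5 measured Schwann and neural crest cell markers was 12389.4 to 22089.7 in glioma stem cells, against 5485.6 to 11048.4 in Nf1-null cells and 4719.6 to 8467.9 in wild-type cells. On the glioma arrays the sum was mostly Pmp22 and Cdh19. Of the 5 markers, 0 passed against Nf1-null cells and Cdh19 rose against wild-type cells (2.87 on the log2 scale, adjusted p = 0.0131); Sox10 differed from wild type by -0.60 (adjusted p = 0.62), and Foxd3 was below the limit on all 9 arrays. The summed signal of 5 oligodendrocyte precursor markers was 115799.3 to 131495.2 in glioma stem cells, 85480.2 to 103951.7 in Nf1-null cells and 103908.9 to 117446.9 in wild-type cells, with 0 called. The 5 neuron markers summed to 35175.9 to 44504.2 in glioma stem cells, 44286.7 to 46118.0 in Nf1-null cells and 50624.4 to 58941.7 in wild-type cells. On every array this sum was mostly Map2. Tubb3 rose against Nf1-null cells (2.13, adjusted p = 0.0344), and Rbfox3 (-2.65, adjusted p = 0.0187) and Snap25 (-1.80, adjusted p = 0.022) fell against wild-type cells. Tubb3 (1.15, adjusted p = 0.0787) and Syt1 (0.88, adjusted p = 0.222) were higher than in wild-type cells but did not pass. Of the 8 neural stem cell markers, 0 passed against Nf1-null cells, while Hes1 rose (0.88, adjusted p = 0.0367) and Msi1 (-1.12, adjusted p = 0.0337) and Slc1a3 (-1.14, adjusted p = 0.0472) fell against wild-type cells. The part of these markers in the Hoxa values was not tested. Markers of spinal cord and motor neurons, cells that do express Hox genes, summed to 66.2 to 255.6 in glioma stem cells, 225.0 to 470.6 in Nf1-null cells and 263.3 to 537.1 in wild-type cells, with Mnx1 and Isl1 below the limit everywhere.

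A few Otx and Emx factors, which act in front of the Hox domain, fell. Otx2, a homeodomain factor of forebrain and midbrain, read 6.9, 2.5 and 2.9 in glioma stem cells, 984.7, 2886.9 and 2031.7 in Nf1-null cells and 637.1, 1837.0 and 1766.2 in wild-type cells, at least 10.1-fold lower than in Nf1-null cells (limma adjusted p = 0.00374) and at least 7.16-fold lower than in wild-type cells (adjusted p = 0.00421). Of 21 measured genes listed as forebrain and optic factors, 3 fell and 0 rose against Nf1-null cells (Otx2, Emx2 and Sox1), where 1.08% of all genes fell. Against wild-type cells, 4 fell and 0 rose (Otx1 as well), where 5.6% of all genes fell. The list had medians of 0.36 and 0.30, so the medians lay above 0 while the called members fell. Against Nf1-null cells 11 of the 21 differences were positive, up to 3.77. There 4 genes were higher and 5 lower without overlap, where 9.24% and 12.7% of all genes were. Against wild-type cells 12 were positive, up to 2.83, with 3 genes higher and 5 lower without overlap, where 13.9% and 20.9% of all genes were. Of the 21, 5 lay below the limit on all 9 arrays. Sox1 was counted as listed and is not taken here as a mark of anterior position. Against Nf1-null and then wild-type cells, the log2 differences were -2.64 and -1.84 for Emx2, -3.04 and -3.93 for Sox1 and -4.28 (adjusted p = 0.106) and -4.32 for Otx1. With the mean of all probe sets of a gene, Sox1 was -1.25 against Nf1-null cells (adjusted p = 0.257) and -2.15 against wild-type cells. Otx2 stayed called without any single array, and Sox1 did so against wild-type cells; Sox1 against Nf1-null cells and Otx1 against wild-type cells were lost without any one array other than glioma array 1, and Otx1 fell against Nf1-null cells without that array (-5.51, adjusted p = 0.0134). Emx2 was lost against Nf1-null cells without Nf1-null array 2 (-2.45) or 3 (-2.60) or glioma array 2 (-2.58) or 3 (-2.38) or with the replicate block (adjusted p = 0.0516), and against wild-type cells without wild-type array 2 (-1.74) or 3 (-1.79) or glioma array 2 (-1.78) or 3 (-1.58).

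Of 10 measured TALE cofactors, the partners of Hox proteins, 0 passed in any comparison. Against Nf1-null cells, 5 of the 10 had an unadjusted p under 0.05, where 16.5% of all genes did, and in 5 of the 10 the groups did not overlap, where 21.9% of all genes did not. Against wild-type cells, 2 of the 10 had an unadjusted p under 0.05, where 26.3% of all genes did. There 30% of the cofactors did not overlap, where 34.8% of all genes did not. Between Nf1-null and wild-type cells 50% did not overlap, where 23.8% of all genes did not. In that comparison 3 of the 10 had an unadjusted p under 0.05, where 16.8% of all genes did. Meis1, which binds DNA with Hox proteins, read 3188.8, 1604.2 and 1381.3 in glioma stem cells, 2382.9, 1583.2 and 2281.2 in Nf1-null cells and 3573.6, 3398.3 and 2666.0 in wild-type cells. Its differences were -0.09 ± 0.34 (adjusted p = 0.922) and -0.73 ± 0.34 (adjusted p = 0.217), with overlapping arrays in both. Without glioma array 1, the highest of the glioma arrays, Meis1 fell relative to wild-type cells (-1.10, adjusted p = 0.0414). Of 37 Polycomb and Trithorax genes, 0 passed against Nf1-null cells and 1 fell relative to wild-type cells. It was Kdm6b, a demethylase that removes the Polycomb mark from histone H3, with 2999.6, 2754.3 and 2331.4 in glioma stem cells, 4053.7, 5557.4 and 4747.6 in Nf1-null cells and 4348.1, 4712.1 and 5193.5 in wild-type cells. Its difference was -0.82 ± 0.18 against each, with adjusted p = 0.0782 against Nf1-null cells and 0.0335 against wild-type cells. The Kdm6b call was lost without wild-type array 1, 2 or 3, Nf1-null array 3, or glioma array 2 or 3 (-0.88 to -0.72, adjusted p between 0.0507 and 0.11).

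Of 18 sequence-specific regulators of Hox genes, among them the Cdx factors, the retinoic acid receptors and Egr2, 0 passed in any comparison. Egr2, which activates Hox genes in the hindbrain, differed by -1.57 ± 0.62 (adjusted p = 0.27) and -0.61 ± 0.62 (adjusted p = 0.587). Of 10 retinoid metabolism genes, 1 rose against wild-type cells, Aldh1a3, which makes retinoic acid. It read 261.1, 501.9 and 336.5 in glioma stem cells, 210.5, 1319.0 and 296.3 in Nf1-null cells and 7.2, 9.6 and 38.6 in wild-type cells, at least 1.7-fold higher in glioma stem cells than in wild-type cells (adjusted p = 0.0219). The Aldh1a3 call was lost without wild-type array 1 or 2 or glioma array 2 or 3 (4.11 to 4.59, adjusted p between 0.0539 and 0.0824). The Nf1-null arrays overlapped the glioma arrays for Aldh1a3. Its measured difference for Nf1-null minus wild type was 4.85, from wild-type signals below the limit. That difference did not pass as fitted here but passed in 3 of 19 alternatives. The part of Aldh1a3 in the Hoxa values was not tested. Of 16 midbrain and hindbrain factors and of 11 other homeobox genes linked to Hox and ParaHox clusters, 0 passed in any comparison.

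The genes that flank the Hox clusters, up to 5 on each side, were read beside the clusters. Of 39 measured neighbours, 0 passed against Nf1-null cells, where 1.75% of all genes did. Against wild-type cells, Creb5 and Atp5g1 (0.95 ± 0.16, adjusted p = 0.02) rose and Atf2 (-0.56 ± 0.14, adjusted p = 0.0477) fell, 7.69% of the neighbours, where 9.06% of all genes passed. Their median differences were -0.01 and 0.11. Skap2, the immediate neighbour on the 3′ side of Hoxa and an adaptor protein, was named after its values were seen. It read 18845.5, 20146.4 and 21133.0 in glioma stem cells, 10635.6, 5740.5 and 11738.0 in Nf1-null cells and 13924.4, 11214.5 and 13607.7 in wild-type cells. All glioma arrays were above the others, but the differences of 1.16 ± 0.27 (adjusted p = 0.0959) and 0.64 ± 0.27 (adjusted p = 0.189) did not pass. Creb5, a transcription factor further out on the 5′ side, read 1833.1, 2563.9 and 2453.8 in glioma stem cells, 2997.2, 4017.5 and 2300.1 in Nf1-null cells and 1123.2, 654.3 and 623.5 in wild-type cells. It was 1.55 ± 0.31 higher on the log2 scale in glioma stem cells than in wild-type cells (adjusted p = 0.0274), and the Nf1-null arrays overlapped the glioma arrays. For Nf1-null minus wild type the Creb5 difference was 1.97, which did not pass as fitted here but passed in 5 of 21 alternatives. The Creb5 call was lost without wild-type array 2 (1.43) or 3 (1.40) or glioma array 2 (1.46) or 3 (1.49), the Atp5g1 call without wild-type array 2 (0.81) or glioma array 2 (0.99) or 3 (0.93), and the Atf2 call without any one of the 9 arrays (-0.64 to -0.50). Skap2 passed against wild-type cells without Nf1-null array 2 (0.64, adjusted p = 0.0495) and among the brighter genes with the replicate block (adjusted p = 0.0498). Against Nf1-null cells it passed in 4 of 21 alternatives: among the brighter genes (adjusted p = 0.0287), with a variance trend (0.0256), with trend and robust moderation (0.0216) and among the brighter genes with the replicate block (0.019).

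**Figure D4:**
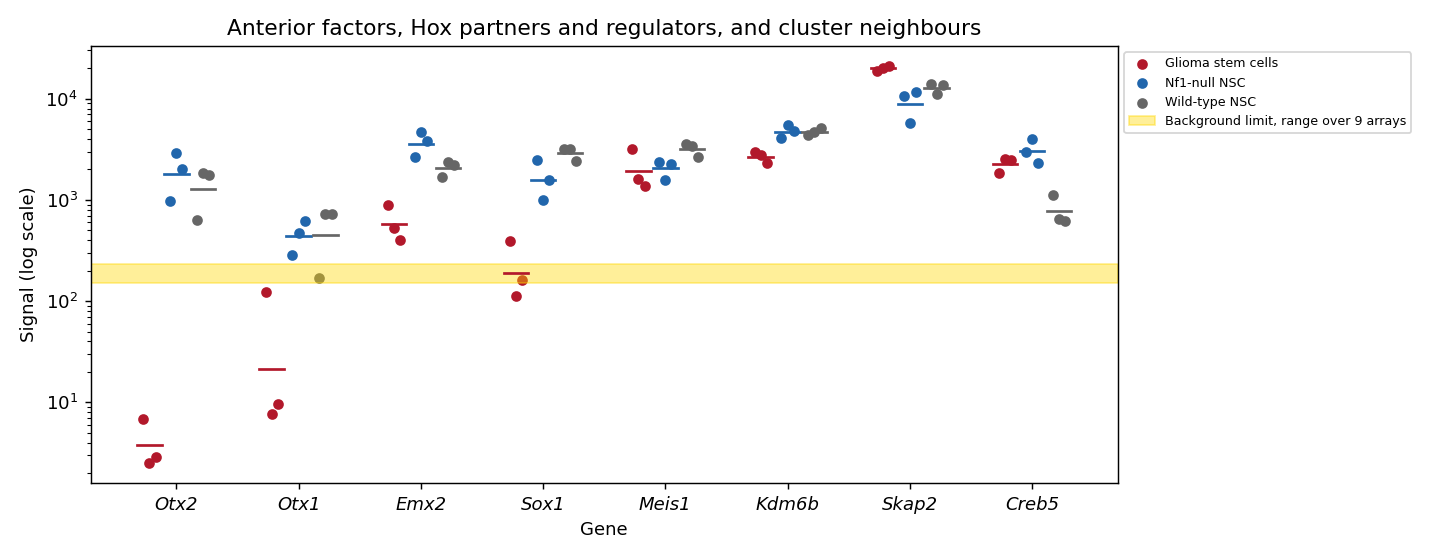
Signal (log scale) of 8 genes around the Hox family on each array, glioma stem cells at the left of each triplet, then Nf1-null and wild-type neural stem cells; points are arrays, bars are means of log2 signals, and the yellow band is the range of the background limit. Otx2 lies below the band in glioma stem cells and far above it in both neural stem cell groups.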

How the data were processed

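RNA from 9 cultures was measured on Affymetrix Mouse 430 2.0 arrays, with cRNA made from 100 ng RNA per the labels' protocols. The intensity values were used as deposited by the authors, as linear probe set signals. On glioma array 1, the only array for which it is given here, the mean was 1500 after the lowest and highest 2% were trimmed. The summarising tool was not given in the sources used here. Of 45101 probe sets, 64 controls were removed; 34945 of the rest had 1 gene symbol, 932 several and 9160 none, and only those with 1 symbol were used. Entrez numbers matched RefSeq for 34741, and 0 symbols changed. From these values log2(signal + 1) was computed, the brightest probe set by mean log2 signal was kept per gene, and 3 group means were fitted with limma 3.58.1 in R 4.3.3 (eBayes, two-sided, Benjamini-Hochberg over 18193 genes, threshold 0.05). The fit was checked on simulated data. The number of arrays limits the precision.

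Values on each array are printed for Hox genes that passed in some comparison or were above the limit on all arrays of a group; of the other lists, genes that passed (at most 6 a list) are named, with Meis1, Otx2, Egr2 and Nf1 always named. Emx2, Sox1, Otx1, Creb5, Atp5g1 and Atf2 fall under this rule; Hoxa2, Hoxa4, Hoxa7 and Skap2 were added after their values were seen. The members and lists were chosen with earlier results of these data known. Same-numbered arrays deviated together between the neural stem cell groups (r = 0.64, 0.24 and 0.59 over the 9097 brighter genes), where differently numbered pairs lay between -0.54 and -0.02. Between glioma and Nf1-null cells the same-numbered values were 0.30, 0.12 and 0.11, but differently numbered pairs reached 0.11, so only replicate 1 stood out. Between glioma and wild-type cells they were 0.24, 0.05 and 0.20, and differently numbered pairs reached 0.19. This pairing comes from the data and not from the labels. Alternatives were other scalings, probe set rules, pseudocount 16, intensity filters, variance models, the replicate block and leaving out each array. Figures were drawn with matplotlib 3.10.9.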

Additional observations from a re-analysis of the deposited data

How the results depend on the processing

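The Hox calls rest on 3 arrays a group, and those of Hoxb9 and Hoxc8 on signals below the background limit; the cause of each change below was not tested. Of the 2 Hox genes called against Nf1-null cells, 1 was called with the brighter genes alone (9097 genes, of which Hoxa5 is the 1 Hox gene), 1 with the replicate block, 1 with both, 0 with the 6 arrays compared and 0 to 1 without single arrays. Of the 4 called against wild-type cells, 2 were called without the dimmest 25% of genes, 1 with the brighter genes, 2 with the replicate block (Hoxb9 and Hoxc8 missed the threshold, and beside these and Hoxa3 the block changed no other Hox call; it also ended the calls of Otx1, Kdm6b, Atf2 and Nf1 against wild-type cells, with adjusted p of 0.0905, 0.0566, 0.0665 and 0.0783), 1 with both and 0 to 4 without single arrays. Without wild-type array 2 or glioma array 2 the count against wild-type cells was 0. Hoxa5 stayed called in 14 of 21 alternatives against Nf1-null cells and in 18 of 21 against wild-type cells, Hoxa3 in 6 of 19 and 16 of 19, Hoxb9 against wild-type cells in 10 of 18 and Hoxc8 against wild-type cells in 4 of 18. In Nf1-null minus wild type the Hox count was 0 in every alternative.

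The median Hox difference was -0.18 against Nf1-null cells and 0.28 for Nf1-null minus wild type without the dimmest 25% of genes. It was 2.24 against Nf1-null cells and 2.19 against wild-type cells among the brighter genes, with or without the replicate block, where it is Hoxa5 alone. Without single arrays it ranged from -0.05 to 0.45 against Nf1-null cells, from -0.17 to 0.16 against wild-type cells and from -0.20 to 0.0 between the neural stem cell groups. The count of Hox genes above background was 5 and 10 with the 90th percentile of receptor genes and the 25th percentile of all genes.

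Over all genes, 319 were called against Nf1-null cells, and the alternatives gave 149 with the mean of probe sets, 536 without the dimmest 25%, 607 with the brighter genes, 737 with a variance trend, 773 with trend and robust moderation, 29 with 6 arrays, 193 with the replicate block, 944 with the brighter genes and replicate block, and 72 to 721 without single arrays. The 1649 called against wild-type cells became 1083 (mean of probe sets), 2488 (without the dimmest 25%), 2680 (trend), 2767 (trend and robust), 1030 (6 arrays), 3013 (brighter genes and replicate block) and 214 to 1756 without single arrays. The 0 called between the neural stem cell groups became 136, 398, 329, 378 and 1081 in the dimmest, brighter, trend, robust and brighter block settings, and 0 to 1 without single arrays.

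Some signs turned, all of differences that had not passed. For Nf1-null minus wild type, Hoxa5 was 0.03 and Otx1 0.06 with quantile normalization, Otx1 was 0.01 with 1 median and Hoxa9 was -0.45 with the mean of probe sets. For glioma minus Nf1-null, Aldh1a3 was 0.25 and Meis1 0.08 with the mean of probe sets. Without single arrays, Nf1-null minus wild type ranged from -0.36 to 0.39 for Hoxa5, -0.22 to 0.66 for Hoxc8, -0.01 to 0.93 for Otx2, -0.73 to 0.32 for Otx1 and -0.11 to 0.12 for Kdm6b, and glioma minus Nf1-null from -0.46 to 0.14 for Meis1, -0.82 to 0.50 for Aldh1a3 and -0.05 to 0.24 for Nf1. With the brightest probe set chosen by mean signal (chosen after seeing the data), Hoxa4 passed (5.5 and 5.22) and Hoxa3 missed the threshold against Nf1-null cells (3.86).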
